A study of Mus musculus with 12 samples.

Results

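Genes with a symbol made of Zfp and a number encode mouse zinc finger proteins, and many of them lie side by side on the chromosome. Of 333 such protein-coding genes on the mouse autosomes in the mm9 genome, 174 had their transcription start site (TSS) within 100 kb of the TSS of another one, and these clustered zinc finger genes are described here. They are 174 of the 21281 autosomal protein-coding genes counted, and the other 159 Zfp-number genes had no such neighbour. Linked by this distance, the 174 genes formed 48 clusters on 12 chromosomes. 24 clusters were pairs, and 11 clusters of 5 or more held 82 of the genes, with 14 in the largest. Chromosome 7 held 67 of the genes, chromosome 17 held 27 and chromosome 13 held 21.

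The data are 12 chromatin immunoprecipitation sequencing (ChIP-seq) libraries, 1 for each of 6 histone marks in 2 states of C2C12 cells, a myoblast line from C3H mice that fuses into myotubes when serum is withdrawn. The myoblasts were collected near confluence in 10% serum. The myotubes were collected about 5 days after differentiation began and were freed of cells that had not fused by a light trypsin step. Both states came from passages 15 to 18 of the same line without any other treatment. No value has a replicate, so no test between the cell states was possible, and every ratio compares 2 libraries. The libraries held between 1858771 and 7033100 reads. No input library was used here.

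Most zinc finger genes that lie in clusters arose by duplication and encode DNA-binding repressors. Many join an array of zinc fingers to a Krüppel-associated box (KRAB), which recruits the corepressor TRIM28 and, through it, the H3K9 methyltransferase SETDB1. At a transcribed gene, H3K4me3 and H3K27ac mark the start and H3K36me3 is laid down along the body behind the polymerase, while H3K27me3 marks genes silenced by Polycomb. The 3' exons that encode the fingers are known in other cells for carrying H3K36me3 together with H3K9me3, a mark that was not among the 6.

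In the annotated coding sequences, the spacing of paired cysteines and histidines of a finger was found a median of 11.5 times per member, and 171 of the 174 members had 3 or more fingers. Zfp619 had the most, 33, and Zfp707 had none by this pattern. A KRAB sequence pattern was found in 114 members, against 46 of the 159 Zfp-number genes without a neighbour. The genes spanned a median of 13594 bp. Members of such clusters resemble each other, so a read can fail to align to a unique place. The share of 34-base sequences that occur once in the genome had a median of 97.8% in the window 1 kb either side of the TSS, 91.9% over the gene body and 96.5% in the last 2 kb of the gene.

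The start sites differed widely in CpG content, and the sequences that follow show part of its range. Each is the 200 bases upstream of the TSS in mm9, 5' to 3' on the strand of the gene, with every CG dinucleotide in capitals. No annotated exon lies in them. Zfp553 and Zfp455 were picked from 90 members. These had such an upstream window, at least 90% unique sequence and a sequence that could be printed here. Zfp553, on the plus strand at chr7:134376375-134376574, had the highest myoblast H3K4me3 of the 90. Zfp455, plus strand, chr13:67295242-67295441, had the lowest CpG ratio among those of the 90 with H3K4me3 peaks in both cell states. Zfp663, minus strand, chr2:165194230-165194429, had the most H3K27me3 in myoblasts.
Zfp553: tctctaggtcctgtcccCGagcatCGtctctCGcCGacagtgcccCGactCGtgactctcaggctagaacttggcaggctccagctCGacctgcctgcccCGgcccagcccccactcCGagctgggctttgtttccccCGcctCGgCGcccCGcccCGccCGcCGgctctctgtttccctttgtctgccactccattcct
Zfp455: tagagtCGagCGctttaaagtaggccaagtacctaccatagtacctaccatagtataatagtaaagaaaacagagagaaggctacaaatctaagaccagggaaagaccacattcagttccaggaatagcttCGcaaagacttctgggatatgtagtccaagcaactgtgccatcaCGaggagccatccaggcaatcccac
Zfp663: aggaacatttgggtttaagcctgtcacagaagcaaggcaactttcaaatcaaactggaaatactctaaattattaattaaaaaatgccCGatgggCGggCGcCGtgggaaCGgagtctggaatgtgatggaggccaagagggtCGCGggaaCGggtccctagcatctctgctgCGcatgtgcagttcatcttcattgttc

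The Zfp553 sequence holds 16 CGs, that of Zfp663 9 and that of Zfp455 4. Over the 174 members the median was 8 CGs in this window, with a range of 0 to 42, and over all genes the median was 9. At least 1 CG was present in 97.1% of the members and in 90.6% of all genes, and 16 or more were present in 20.7% and 30.8%.

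Adjacent members can also share a start region. In 3 pairs the start sites lay within 1 kb of each other in opposite directions, so that the same reads were counted for both genes. Zfp942 and Zfp943, at the ends of a shared stretch of 87 bases that holds 9 CGs, are the closest. It is shown on the plus strand, chr17:22099432-22099518.
Zfp942 to Zfp943: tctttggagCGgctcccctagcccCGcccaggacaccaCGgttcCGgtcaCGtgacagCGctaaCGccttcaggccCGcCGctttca

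H3K4me3 at Zfp942 was 19.8-fold in myoblasts and 19-fold in myotubes, and at Zfp943 it was 19.8-fold and 18.6-fold. The other pairs are Zfp944 and Zfp758, 122 bp apart, and Zfp646 and Zfp668, 662 bp apart.

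Fold enrichment is the number of fragment midpoints in a window over the mean of the same library across chromosomes 1 to 19 and X. Levels are called above the genome mean where the lower bound of the exact Poisson 95% interval exceeds 1. These intervals, and those of ratios of single genes or clusters, cover counting error only. Intervals of medians reflect the spread across genes or clusters, taken as independent although neighbours can share reads. No interval covers variation between cultures. The start sites of clustered zinc finger genes carried H3K4me3 in most cases. The median was 18.9-fold (95% interval of the median 16.1 to 20.7) in myoblasts and 18.0-fold (15.1 to 21.3) in myotubes, where all genes had 5.53-fold and 5.43-fold. In myoblasts 139 of the 174 members (79.9%) were called above the genome mean, beside 55.5% of all genes, and in myotubes 140 members were called, beside 55.1% of all genes. The Zfp-number genes without a neighbour had medians of 23.0-fold and 19.4-fold.

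Zfp668 had the highest H3K4me3 in myoblasts. Its window held 168 reads in myoblasts, 77.4-fold (66.2 to 90.1), and 170 reads in myotubes, 65.9-fold (56.4 to 76.6). No H3K4me3 read was found at 6 members in myoblasts and at 5 in myotubes. Zfp575 is 1 of the 2 with no read in either library, where 3 reads would be 1.38-fold in myoblasts and 1.16-fold in myotubes. All of the Zfp575 window is unique sequence.

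H3K4me2, which also marks promoters in use, was high at most starts too. Its median was 18.2-fold (14.6 to 21.1) in myoblasts and 12.6-fold (9.95 to 14.2) in myotubes. It was called at 143 members in myoblasts, against 62.6% of all genes, and at 139 members in myotubes, against 60.0%. Zfp251, on chromosome 15, had the highest myoblast level, 102-fold from 343 reads, and 26.3-fold in myotubes. No H3K4me2 read was found at 15 members in myoblasts, where 3 reads would be 0.893-fold. Zfp114 is among them and had 1 read in myotubes.

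H3K27ac, a mark of active promoters and enhancers, was lower and more variable. Its median over the members was 8.60-fold (6.19 to 11.7) in myoblasts and 4.60-fold (3.79 to 5.95) in myotubes, beside 4.13-fold and 2.71-fold over all genes. The mark was called at 121 members in myoblasts, with 52.5% of all genes called, and at 113 members in myotubes, with 51.6%. Zfp655 had the highest myoblast level, 81.8-fold (67.8 to 97.9), and 42.7-fold in myotubes. The myoblast library had no H3K27ac read at 29 members, among them Zfp105, where 3 would be 2.06-fold, and the myotube library had 2 reads at Zfp105, 0.541-fold.

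H3K4me1, the mark of enhancers and promoter flanks, was close to the level of all genes. Members had medians of 1.97-fold in myoblasts and 1.83-fold in myotubes. In myoblasts 78 members were called (44.8%), and 50.1% of all genes were. In myotubes 73 members were called (42.0%), and 49.3% of all genes were. Zfp692 had the highest myoblast level, 10.7-fold, and Zfp459 is 1 of the 4 with no H3K4me1 read in either library, where 3 reads would be 0.592-fold and 0.611-fold.

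**Figure D1:**
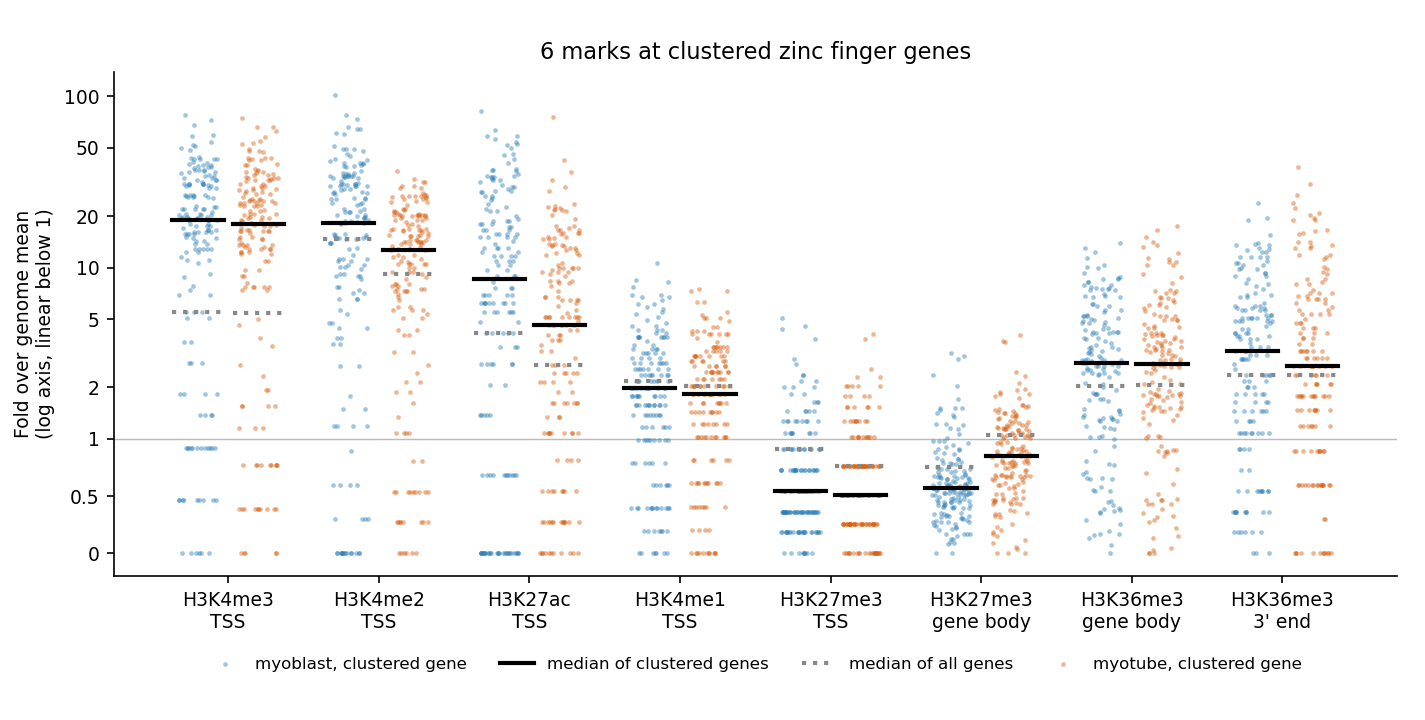
Fold over the genome mean of each mark (vertical axis, logarithmic above 1 and linear below) for each clustered zinc finger gene, with myoblasts in blue and myotubes in orange; black bars are the medians of these genes and dotted grey bars those of all genes. The H3K4me3 medians of the clustered genes, 18.9 and 18.0, lie above the 5.53 and 5.43 of all genes, whereas their H3K27me3 medians lie below those of all genes.

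Most members had the mark at the start in both states or in neither. A deposited H3K4me3 peak overlapped the TSS window of 133 members in both cell states, of 35 in neither, of 1 in myoblasts alone and of 5 in myotubes alone. This is 77.0% of the members with a peak in myoblasts and 79.3% in myotubes, beside 49.6% and 49.9% of all genes. Among the 133, the median H3K4me3 was 22.1-fold in myoblasts and 23.3-fold in myotubes. All genes with peaks in both states had 34.1-fold and 29.1-fold. H3K27ac at the 133 members was 13.8-fold and 6.76-fold, where all genes with peaks in both states had 26.1-fold and 14.1-fold. At starts with a peak the members were thus below all genes, whereas over all starts they were above, where 79.9% of the members and 55.5% of all genes were called.

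H3K4me3 at the members varied with CpG content, taken as the observed over expected number of CGs in 1 kb centred on the TSS. The 82 members with a ratio above 0.6 had a median of 30.2-fold in myoblasts and 25-fold in myotubes, and 80 of them (97.6%) were called in each state. All genes above 0.6 had 31.8-fold and 26.0-fold, with 90% and 89% called. Between 0.3 and 0.6 the members and all genes stood further apart. The 72 members in that range had 15.0-fold in myoblasts and 13.6-fold in myotubes, with 59 (81.9%) and 60 (83.3%) called. All genes in the range had 2.30-fold and 1.94-fold, with 46.5% and 45.1% called. None of the 20 members with a ratio of at most 0.3 was called in either state, and their medians were 0.922-fold and 0.388-fold. Of all genes at that ratio 8.33% and 9.55% were called, with medians of 0.461-fold and 0.388-fold. At Zfp455, whose sequence is shown above and whose ratio was 0.319, H3K4me3 stood at 7.84-fold in myoblasts and 10.9-fold in myotubes. The limit of 0.3 was set after the values had been seen.

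**Figure D2:**
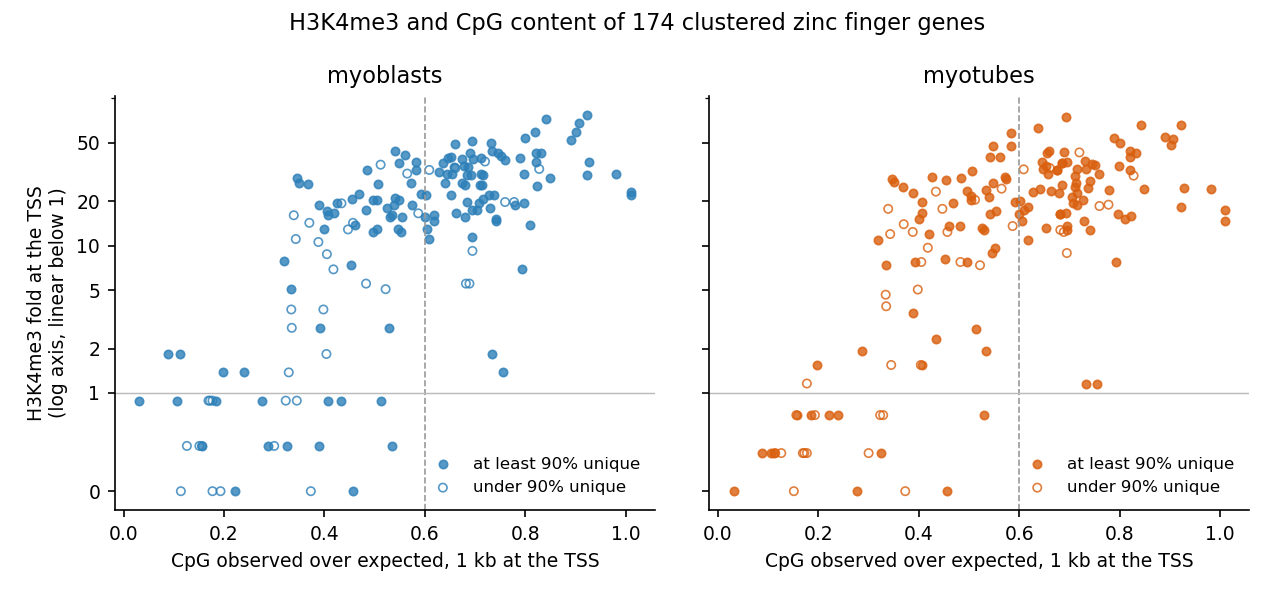
H3K4me3 fold over the genome mean at the TSS (vertical axis, logarithmic above 1 and linear below) against the observed over expected CpG ratio of 1 kb at the TSS, 1 point per clustered gene, for myoblasts (left) and myotubes (right); open points are genes with under 90% unique 34-base sequences and the dashed line marks 0.6. Points to the right of the line cluster near the medians of 30.2 and 25, and those at or below 0.3 stay near or under the genome mean.

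Unique sequence moved with these levels. The 41 members with under 90% unique sequence in the TSS window had a median H3K4me3 of 5.53-fold in myoblasts and 7.75-fold in myotubes, and the other 133 had 20.7-fold and 21.3-fold. Across the 174 members the rank correlation (Spearman) of H3K4me3 with the unique share was 0.44 in myoblasts, and that with the CpG ratio was 0.70, both from the same library. Across all genes they were 0.39 and 0.73. Counted per unique position in place of per base, the H3K4me3 medians of the 174 members were 20.2-fold and 20.3-fold.

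H3K27me3 was rare at the starts. The median was 0.547-fold in myoblasts and 0.510-fold in myotubes, below the 0.911-fold and 0.765-fold of all genes. It was called at 13 members in myoblasts (7.47%), with 17.9% of all genes called, and at 5 in myotubes (2.87%), with 12.3%. Only H3K4me3 was called at 134 members in myoblasts and 139 in myotubes, both marks at 5 and 1, only H3K27me3 at 8 and 4, and neither at 27 and 30. In myoblasts these were 77.0%, 2.87%, 4.60% and 15.5% of the members, beside 50.3%, 5.14%, 12.8% and 31.8% of all genes. In myotubes they were 79.9%, 0.575%, 2.30% and 17.2%, beside 52.8%, 2.23%, 10.1% and 34.9%.

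The 5 members that reached 3-fold in either state were Zfp663, Zfp105, Zfp879, Zfp286 and Zfp811. Zfp663 had 28 H3K27me3 reads in myoblasts, 5.10-fold (3.39 to 7.37), and 8 in myotubes, 2.04-fold (0.881 to 4.02). Its H3K4me3 was 2.77-fold in myoblasts and 0.775-fold in myotubes. Its start lost other marks too, with H3K4me2 falling from 12.8-fold to 1.61-fold and H3K4me1 from 5.92-fold to 0.611-fold. Zfp105 went from 4.55-fold H3K27me3 to 2.04-fold and Zfp879 from 3.83-fold to 2.04-fold, with ratio intervals that included 1. Zfp286 held 4.37-fold and 4.08-fold, and Zfp811 2.73-fold and 3.82-fold. These 5 starts had little H3K4me3 in myoblasts, at most the 2.77-fold of Zfp663. At the low end, Zfp174 is 1 of the 9 with no H3K27me3 read in myoblasts, where 3 would be 0.547-fold, and 2 reads in myotubes.

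Over the gene body, taken from 1 kb after the TSS to the gene end and measured in the 168 members with at least 2 kb, H3K27me3 was again low. Members had a median of 0.566-fold (0.526 to 0.608) in myoblasts and 0.853-fold (0.790 to 0.920) in myotubes, and all genes had 0.750-fold and 1.06-fold. It was called at 11 members in myoblasts (6.55%), with 23.5% of all genes called, and at 19 in myotubes (11.3%), with 31.7%. The Zfp-number genes without a neighbour were also low, with medians of 0.636-fold and 0.901-fold and 8.16% and 15.6% called. Zfp811 had the highest body level, 3.17-fold in myoblasts and 4.03-fold in myotubes, from 22 and 20 reads. Zfp960, like Zfp97, had no read in either library, where 3 would be 0.0446-fold and 0.0624-fold, but only 6.69% of its body is unique sequence.

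H3K36me3, the mark of transcribed gene bodies, was present on most members. Its median over the body was 2.76-fold (2.41 to 3.18) in myoblasts and 2.73-fold (2.08 to 3.27) in myotubes, beside 2.04-fold and 2.06-fold over all genes. The Zfp-number genes without a neighbour had 3.78-fold and 3.05-fold. The mark was called at 119 of the 168 members in myoblasts, against 56.7% of all genes, and at 124 in myotubes, against 57.5%. In the last 2 kb of the gene, where the place of the finger exon was not checked, the medians were 3.27-fold (2.36 to 4.18) and 2.67-fold (2.08 to 3.26). There 103 members were called in myoblasts, against 51.6% of all genes, and 95 in myotubes, against 51.1%. The intervals of these medians for the members included the medians of all genes there, 2.36-fold and 2.37-fold.

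Zfp646, with 27 fingers and a start shared with Zfp668, had the highest body level in myoblasts, 14-fold (12.5 to 15.7), and in myotubes it had 16.6-fold (14.6 to 18.9) in myotubes. Zfp777 had the highest level at the 3' end, 23.8-fold (19.9 to 28.3) and 38.8-fold (32.5 to 46.1), from 131 reads in each library. The lowest members lay in sequence that reads rarely align to. Zfp97 had no H3K36me3 read over its body in either library, where 3 would be 0.0447-fold and 0.0729-fold, with 3.58% unique sequence. Zfp114, like Zfp97, had none at its 3' end, where 3 would be 0.546-fold and 0.890-fold, with 33.2% unique. The 46 members with under 90% unique sequence at the 3' end had a median of 1.09-fold in myoblasts and 1.04-fold in myotubes, and the other 122 had 4.46-fold and 3.26-fold.

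Within the gene the mark increased towards the 3' end. Among members with at least 30 reads in the body, the second part of the body over the first part had a median ratio of 1.5 in myoblasts (123 genes) and 1.74 in myotubes (116 genes). Other genes had 1.27 and 1.48, and the Zfp-number genes without a neighbour had 1.34 and 1.59. With each gene divided into 20 equal parts, the mean of the members was highest in part 17 in myoblasts, at 5.15-fold, and in part 18 in myotubes, at 5.61-fold. It then dropped to 3.90-fold and 3.98-fold in the last part and to 2.58-fold and 2.31-fold in the 200 bp after the gene end. In other genes the highest mean was in part 19, at 4.18-fold and 4.97-fold, with 3.34-fold and 3.44-fold in the 200 bp after the end. The Zfp-number genes without a neighbour were also highest in part 19, at 5.61-fold and 6.34-fold. They had 3.09-fold and 2.38-fold in the 200 bp after the end.

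**Figure D3:**
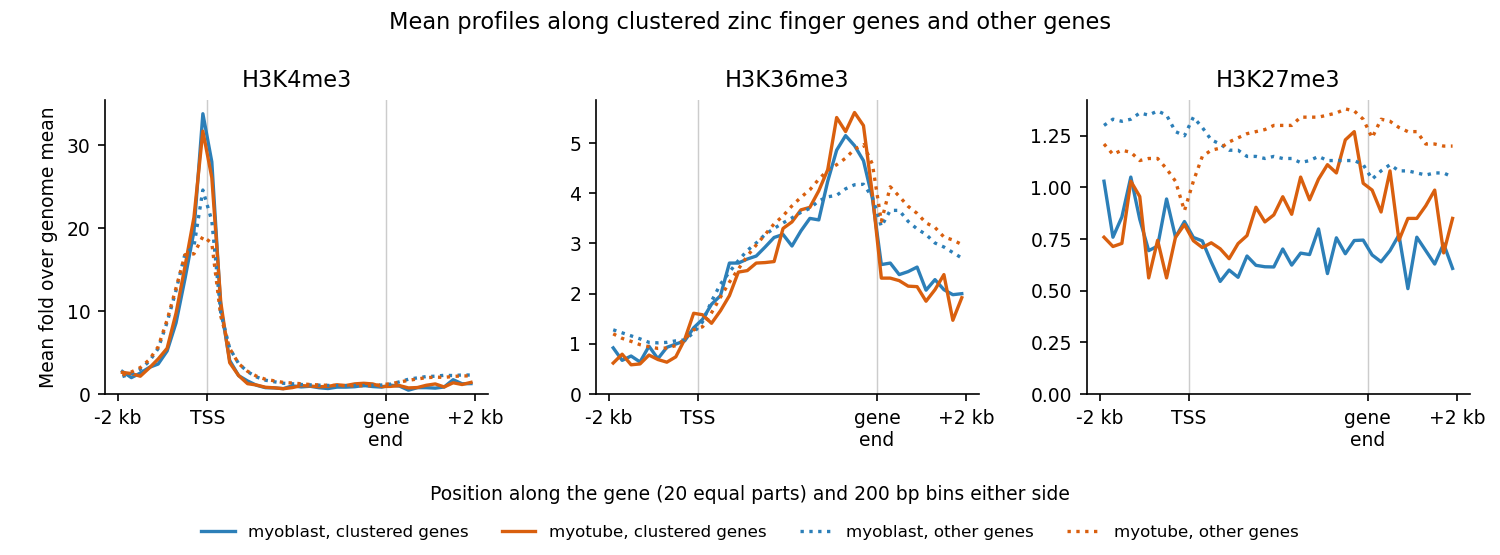
Mean fold over the genome mean of H3K4me3, H3K36me3 and H3K27me3 (vertical axes, linear from 0) along genes divided into 20 parts with 2 kb on each side in 200 bp bins (horizontal axis), for clustered zinc finger genes (solid) and other genes (dotted) in myoblasts (blue) and myotubes (orange). H3K36me3 of the clustered genes climbs to 5.15 and 5.61 in parts 17 and 18 and is lower after the gene end.

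H3K36me3 without H3K4me3 at the annotated start was more frequent among the members than among all genes. Of the 33 members with no H3K4me3 peak in either state and a measured body, 9 (27.3%) had H3K36me3 called at the 3' end in both states, as did 607 of 6867 such genes (8.84%). These 9 were named after their values had been seen. At Zfp647 the H3K36me3 level was 19.5-fold in myoblasts and 30.8-fold in myotubes, with 2 and 0 H3K4me3 reads at the start, and the nearest H3K4me3 peak was 6474 bp away. At Zfp498 it was 10.4-fold and 11.3-fold, and a peak lay 1150 bp away. Zfp239 differed from the rest in having H3K4me3 above the genome mean, at 12.4-fold and 7.75-fold, although no deposited peak overlapped it. The others were Zfp772, Zfp964, Zfp869, Zfp810, Zfp445 and Zfp87, at 2.91-fold to 10.7-fold in myoblasts and 2.37-fold to 7.12-fold in myotubes. The start windows of Zfp772, Zfp869 and Zfp964 held 35.5%, 76.4% and 81.1% unique sequence and those of the other 6 at least 93.8%, and the part of missing alignments in missing peaks was not tested.

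Members with and without a KRAB pattern were then compared. The 114 members with a KRAB pattern had a median H3K36me3 at the 3' end of 2.91-fold (2.0 to 3.82) in myoblasts and 2.37-fold (1.78 to 2.97) in myotubes, and the 60 without had 4.91-fold (2.36 to 6.73) and 4.15-fold (2.67 to 6.82). At the start, H3K27ac was 6.54-fold and 3.79-fold with the pattern and 12.8-fold and 8.25-fold without. The members with the pattern also had the lower CpG ratio, a median of 0.536 against 0.685, and less unique sequence at the 3' end, 95.4% against 97.9%, and the part of either was not tested. The intervals of the H3K36me3 medians of both sets overlapped in both cell states. The rank correlation of H3K36me3 at the 3' end with the number of fingers was -0.081 in myoblasts and -0.20 in myotubes across members.

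Between the cell states, a gene is called changed where the ratio of myotubes to myoblasts was at least 2 or at most 0.5 with at least 30 reads in the 2 libraries together. Counts under other windows, depths or scalings cover the members only, without a share over all genes. Medians of ratios add 1 read to each library, which draws windows with few reads towards the ratio of the library sizes, so the median over windows with at least 30 reads is given too. ChIP-seq of many cells cannot tell fewer cells with a mark from less of the mark per cell. H3K4me3 at the starts of the members stayed close to its myoblast level, with a median ratio of 0.961 (0.899 to 1.03), and the median over all genes was 0.841. With at least 30 reads these were 0.975 and 0.869. Of 134 members with enough reads, 2 rose, beside 3.17% of all genes, and 0 fell, beside 7.44% of all genes. In windows of 1 kb centred on the TSS 0 rose and 3 fell, and 0 rose with libraries thinned to the smallest or among members with at least 90% unique sequence. Both that rose were Zfp944 and Zfp758, which share their start. At Zfp758 the mark went from 12 reads, 5.53-fold, to 33 reads, 12.8-fold, a ratio of 2.31 (1.16 to 4.92), in a window with 68.6% unique sequence. The largest decline was at Zfp688, from 30-fold to 16.7-fold, a ratio of 0.556 (0.369 to 0.831).

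H3K27ac at the starts was lower in myotubes at most members. The median ratio of the members was 0.551 (0.459 to 0.656), and that of all genes was 0.544. With at least 30 reads these were 0.491 (0.425 to 0.602) and 0.577. Of 88 members with enough reads, 45 fell (51.1%), beside 40.6% of all genes, and 3 rose (3.41%), beside 5.35%. In windows of 1 kb centred on the TSS 1 rose, and with libraries thinned to the smallest 0 did. Zfp748, with 23 fingers, had the largest fall, from 47 reads, 32.3-fold, to 17 reads, 4.60-fold, a ratio of 0.142 (0.0766 to 0.252). Its H3K4me3 was 34.6-fold in myoblasts and 22.9-fold in myotubes. The 3 that rose were Zfp763, from 6.88-fold to 16-fold, Zfp84, from 7.57-fold to 16.5-fold, and Zfp568, from 37.8-fold to 76.3-fold. Zfp568, a KRAB repressor known for silencing a placental promoter of Igf2, had 282 reads in myotubes, and Zfp84 lies in the same cluster on chromosome 7.

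H3K4me2 fell at 43 of 137 members (31.4%), beside 36.6% of all genes, and rose at 1, Zfp946, from 7.74-fold to 16.1-fold, beside 2.12% of all genes. The largest fall was at Zfp663, a ratio of 0.126 (0.0438 to 0.297). H3K4me1 fell at 5 of 39 members (12.8%), beside 22.2% of all genes, and rose at 0, beside 6.84%. The 5 were Zfp663, Zfp239, Zfp963, Zfp287 and Zfp948, and the largest fall was again at Zfp663, a ratio of 0.103 (0.0202 to 0.332). Zfp74 had the highest H3K4me1 ratio, 1.64 (0.754 to 3.69). The libraries of these 2 marks differed in how much lay outside peaks. The share of reads outside peaks in myotubes over that in myoblasts was 1.54 for H3K4me2 and 1.23 for H3K4me1, while it was between 0.901 and 1.0 for the other marks. Scaled by those windows, the median H3K4me2 ratio of the members went from 0.719 to 0.468, with 89 falls and no rise. This scaling multiplies the ratio of every gene by the same number, and the falls over all genes were not counted under it. The median H3K4me1 ratio turned from 1.03 to 0.839, and over the 39 members with at least 30 reads it was already 0.878 without scaling.

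H3K36me3 changed at named members in both directions with little change in the median. At the 3' end the median ratio was 1.06 (0.932 to 1.22), beside 1.19 over all genes, and with at least 30 reads it was 1.09 (0.880 to 1.22), beside 1.13. Of 83 members with enough reads, 7 rose (8.43%), beside 13.7% of all genes, and 14 fell (16.9%), beside 9.91%. The counts depended on the setting. In windows centred on the gene end 3 rose and 5 fell, with libraries thinned to the smallest 4 rose and 0 fell, and scaled by windows outside peaks 11 rose and 10 fell. As first counted, the interval of the ratio excluded 1 at 6 of the 7 rises and at 9 of the 14 falls. Zfp52 had the largest fall, from 31 reads, 5.64-fold, to 3 reads, 0.890-fold, a ratio of 0.158 (0.0309 to 0.506). Zfp13 had the largest rise, from 34 reads, 6.18-fold, to 56 reads, 16.6-fold, a ratio of 2.69 (1.72 to 4.24). Of the 14 that fell, 6 are on chromosome 17 and 4 on chromosome 13, and of the 7 that rose, 5 are on chromosome 7. Of all 174 members these chromosomes hold 27, 21 and 67, and members with enough reads were not counted by chromosome. The falls on chromosome 17 include Zfp54, Zfp51, Zfp53, Zfp52 and Zfp948, which lie in a single cluster.

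Over the whole body, 6 of 141 members rose in H3K36me3, beside 7.82% of all genes, and 6 fell, beside 6.58%. Scaled by windows outside peaks, 11 rose and 4 fell. The largest rise was at Zfp112 on chromosome 7, from 26 reads, 0.652-fold, to 67 reads, 2.74-fold, a ratio of 4.20 (2.64 to 6.89). Zfp87 on chromosome 13 fell most, from 71 reads, 5.69-fold, to 14 reads, 1.83-fold, a ratio of 0.322 (0.167 to 0.576).

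H3K27me3 over the body was higher in myotubes at most members. The median ratio was 1.40 (1.28 to 1.52), beside 1.20 over all genes and 1.34 over the Zfp-number genes without a neighbour. With at least 30 reads it was again 1.40 (1.27 to 1.57), beside 1.17 and 1.26. Of 114 members with enough reads, the ratio was below 1 at 13, 19 rose (16.7%), beside 10.6% of all genes, and 0 fell, beside 0.866%. With libraries thinned to the smallest, 1 rose. Chromosome 7, with 67 of the 174 members, held 11 of the 19. Zfp60, with 19 fingers, had the largest rise, from 19 reads, 0.325-fold, to 47 reads, 1.13-fold, a ratio of 3.46 (1.99 to 6.25). The lowest ratio was that of Zfp942, from 0.528-fold to 0.340-fold. These are changes at a low level, since the 19 lay between 0.280-fold and 0.877-fold in myoblasts and between 0.644-fold and 1.95-fold in myotubes. The share of H3K27me3 reads outside the regions of both deposited myoblast H3K27 lists and the myotube list was the same in both libraries, a ratio of 1.0. At the TSS windows of all genes with at least 30 H3K27me3 reads the median ratio was 0.676.

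The marks kept the order of the members between the cell states to different degrees. The rank correlation of myoblast and myotube levels, across members and not across samples, was 0.94 for H3K4me3 and 0.88 for H3K27ac at the TSS, 0.84 for H3K36me3 at the 3' end and 0.65 for H3K27me3 over the body. Across all genes the same coefficients were close to these, at 0.91, 0.89, 0.87 and 0.72. Read counts per window differ between these marks, so the coefficients are not on a common scale.

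Whole clusters, from the start of the first gene to the end of the last, were then compared between the cell states. Over the 47 clusters with at least 30 reads, the median ratio was 1.01 (0.949 to 1.08) for H3K4me3, 0.917 (0.862 to 1.02) for H3K36me3 and 1.19 (1.07 to 1.23) for H3K27me3, and none of these changed by 2-fold. H3K27ac had a median of 0.652 over 45 clusters. Genes named inside a cluster, beyond the first and last of clusters of 5 or more, were chosen after their values had been seen.

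Among clusters with at least 30 reads, the largest loss of H3K36me3 was on chromosome 17. In the 6 genes from Zfp677 to Zfp948, chr17:21520712-21725664, all on the plus strand, the ratio over the span was 0.505 (0.451 to 0.565). At the 3' end the level was 12.4-fold in myoblasts and 2.67-fold in myotubes at Zfp948, 6.91-fold and 1.78-fold at Zfp51, and 6.73-fold and 2.97-fold at Zfp54. It was 5.64-fold and 0.890-fold at Zfp52 and 5.27-fold and 2.37-fold at Zfp53, where the interval of the ratio included 1. These 5 genes all had a ratio below 0.5, and Zfp677, at 0.546-fold and 0.593-fold, had almost no H3K36me3 in either state. H3K4me3 over the same span kept a ratio of 0.970 (0.863 to 1.09). At Zfp948 it was 15.7-fold in myoblasts and 17.1-fold in myotubes, and at Zfp677 it was 7.38-fold and 8.14-fold.

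On chromosome 6, in the 7 genes from Zfp786 to Zfp746, chr6:47769265-48036592, H3K36me3 at the 3' end had a ratio above 1 at all 7. Their median went from 7.46-fold to 11.6-fold, while the ratio over the span was only 1.09 (1.02 to 1.16). H3K4me3 and H3K27ac had ratios below 1 at all 7 starts, and over the span they were 0.807 (0.726 to 0.897) and 0.610 (0.531 to 0.703). With 1 read added, 34.5% of all genes had a ratio above 1 for H3K4me3, 19.3% for H3K27ac and 60.5% for H3K36me3 at the 3' end, and the medians of all genes were 0.841, 0.544 and 1.19. Zfp786 had 18.0-fold and 14.7-fold H3K4me3 and 1.64-fold and 4.15-fold H3K36me3. At Zfp746 these were 22.1-fold and 17.4-fold for H3K4me3 and 14-fold and 22.2-fold for H3K36me3, although the ratio at Zfp746 turned to 0.761 in a window centred on the gene end. Zfp956, the member of this cluster called as risen, went from 10.0-fold to 20.8-fold, and Zfp786, with a ratio of 2.54 (1.02 to 6.64), had too few reads for a call.

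The largest cluster, the 14 genes from Zfp84 to Zfp146 at chr7:30553571-30954746, had more of several marks in myotubes. Over the span the ratio was 1.43 (1.33 to 1.53) for H3K4me3, 1.42 (1.31 to 1.53) for H3K27ac, 1.43 (1.28 to 1.59) for H3K27me3 and 1.17 (1.11 to 1.23) for H3K36me3. In the same order, the medians over clusters with at least 30 reads were 1.01, 0.652, 1.19 and 0.917. Over the bodies of all members the median H3K27me3 ratio was 1.40. H3K4me3 was higher in myotubes at 11 of the 14 starts, beside 34.5% of all genes with 1 read added. At Zfp84 it went from 36.4-fold to 63.2-fold, a ratio of 1.74 (1.32 to 2.30), and at Zfp146 from 51.6-fold to 74.4-fold, a ratio of 1.44 (1.14 to 1.84), and neither reached 2-fold. The excess of H3K27ac over the span was not shared by most starts, since the ratio was above 1 at 5 of the 14, the highest being Zfp84 and Zfp568. With 1 read added, 19.3% of all genes had an H3K27ac ratio above 1. H3K36me3 at the 3' end was 6.00-fold and 6.82-fold at Zfp84 and 10.7-fold and 14.2-fold at Zfp146.

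**Figure D4:**
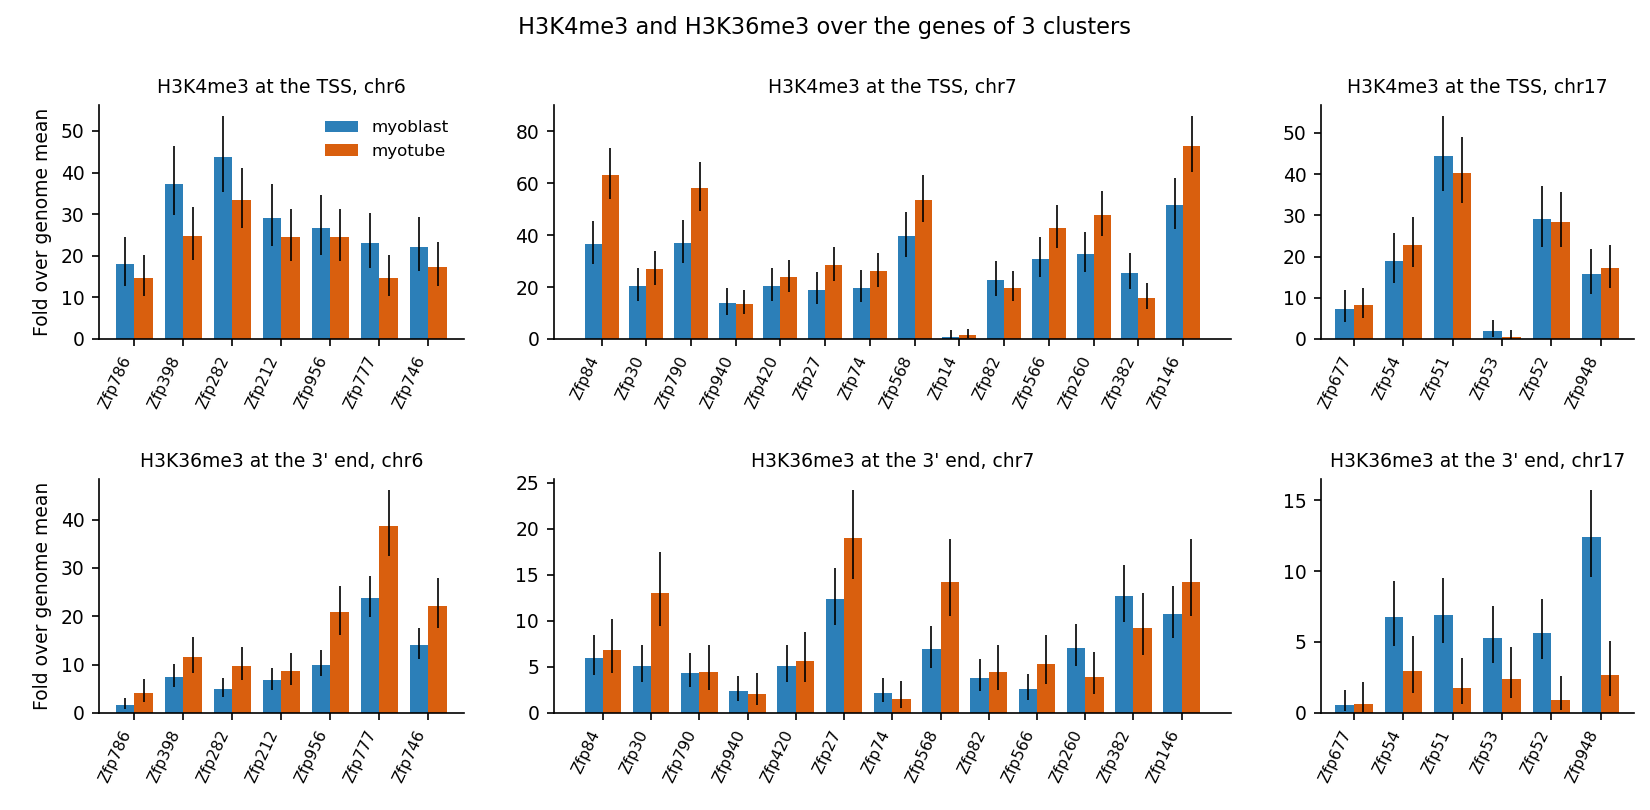
H3K4me3 at the TSS (top) and H3K36me3 at the 3' end (bottom), as fold over the genome mean on linear axes from 0, for the genes of the clusters on chromosomes 6, 7 and 17 in chromosomal order, each panel with its own scale; bars are myoblasts (blue) and myotubes (orange) and error bars are 95% counting intervals. On chromosome 17 the 3'-end bars of Zfp948 drop from 12.4 to 2.67 while its H3K4me3 bars stay at 15.7 and 17.1.

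From Zfp180 to Zfp94, 10 genes at chr7:24866943-25101685, H3K36me3 over the span had a ratio of 1.34 (1.19 to 1.5), and the ratio was above 1 at the 3' end of 7 of the 9 genes with reads. With 1 read added, 60.5% of all genes had a ratio above 1 at the 3' end. Zfp180 had 39.6-fold and 29.9-fold H3K4me3 and 11.5-fold and 10.1-fold H3K36me3, and Zfp94 had 9.22-fold and 8.92-fold H3K4me3 and 3.46-fold and 6.82-fold H3K36me3. From Zfp560 to Zfp846, 5 genes at chr9:20149580-20399638, the H3K36me3 ratio was 0.671 (0.605 to 0.744) over the span while 2 of 5 genes were above 1 at the 3' end. Zfp560 had 30.9-fold and 34.9-fold H3K4me3 but 3 H3K36me3 reads at its 3' end in each library, and Zfp846 had 12.9-fold and 8.92-fold H3K4me3 and 4.0-fold and 2.97-fold H3K36me3.

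The 11 genes from Zfp712 to Zfp459, chr13:67139530-67514893, had little H3K36me3, with a median at the 3' end of 1.45-fold in myoblasts and 0.890-fold in myotubes, but H3K4me3 at 12.9-fold and 15.1-fold and a ratio over the span of 1.18 (1.06 to 1.31). Zfp712 had 20.3-fold and 21.7-fold H3K4me3, and Zfp459 had 2 reads and 1 read. From Zfp871 to Zfp563, 8 genes at chr17:32908181-33243148, the H3K36me3 ratio over the span was 0.906 (0.822 to 0.998), which turned to 1.01 when scaled by windows outside peaks. H3K36me3 was 4.0-fold and 1.19-fold at Zfp871 and 5.82-fold and 4.15-fold at Zfp563, with H3K4me3 at 32.7-fold and 33.0-fold and at 20.7-fold and 27.9-fold.

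In the remaining clusters the intervals of the H3K36me3 ratio over the span included 1. The ratio was 1.02 from Zfp628 to Zfp580 and 0.957 from Zfp329 to Zfp446, both on chromosome 7. It was 0.996 from Zfp768 to Zfp689, also on chromosome 7, and 1.06 from Zfp868 to Zfp866 on chromosome 8. H3K4me3 at these genes was 30.9-fold and 26.8-fold at Zfp628, 20.7-fold and 19-fold at Zfp580, and 19.4-fold in both states at Zfp329. It was 30.4-fold and 36.4-fold at Zfp446, 25.8-fold and 22.9-fold at Zfp768, and 49.8-fold and 37.6-fold at Zfp689. Zfp868 had 14.8-fold and 18.2-fold, and Zfp866, the third highest of the members in myoblasts, had 67.8-fold and 52.7-fold.

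The smaller clusters were ranked among those with at least 30 reads of the mark. The 4 genes from Zfp667 to Zfp28, chr7:6238181-6347755, had the highest span ratios, 1.68 (1.38 to 2.06) for H3K4me3 and 1.70 (1.45 to 2.0) for H3K36me3. The 4 genes from Zfp60 to Zfp607, chr7:28516408-28664586, had the highest span ratio of H3K27ac, 2.11 (1.69 to 2.66), from 93 reads in myoblasts and 499 in myotubes. Their own starts did not carry this increase, since Zfp60 had 21.3-fold and 16.5-fold, and Zfp626, Zfp59 and Zfp607 had at most 2 reads each.

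**Figure D5:**
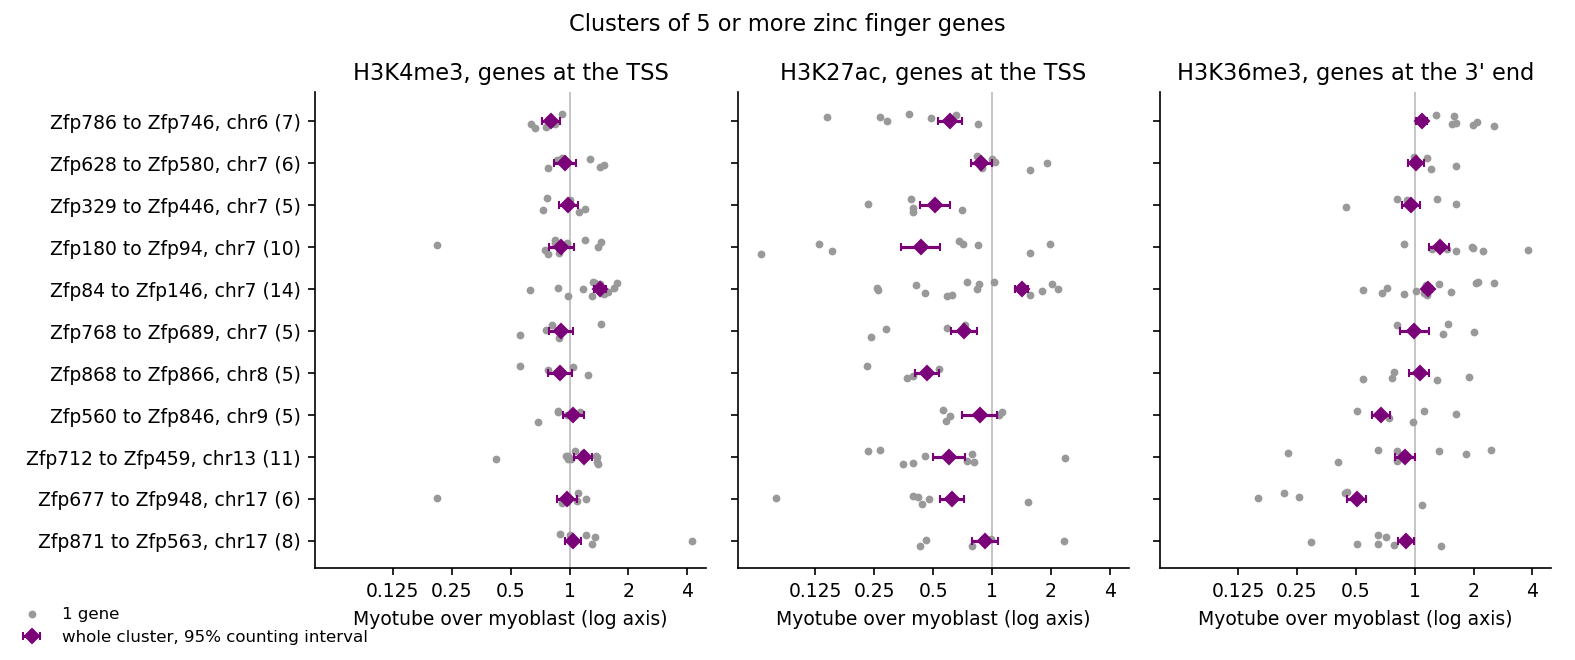
Ratio of myotubes to myoblasts (horizontal axes, logarithmic) for the 11 clusters of 5 or more genes; diamonds are the whole cluster with its 95% counting interval and grey points are single genes at the TSS (H3K4me3, H3K27ac) or the 3' end (H3K36me3), leaving out genes with no read in at least 1 of the libraries. The H3K36me3 diamond of the cluster from Zfp677 to Zfp948 lies at 0.505, and the H3K4me3 diamond of the cluster from Zfp84 to Zfp146 at 1.43.

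The genes for the partners of KRAB proteins and for the enzymes of these marks were read as a list of 11, Trim28, Setdb1, Cbx1, Cbx3, Cbx5, Chd3, Mbd1, Setd2, Nsd1, Ezh2 and Kmt2a. H3K4me3 was called at all 11 in both states, beside 55.5% and 55.1% of all genes, with medians of 29.5-fold in myoblasts and 28.3-fold in myotubes. Of 10 with enough reads 0 rose and 1 fell, where 3.17% and 7.44% of all genes did. For H3K27ac 0 of 10 rose and 6 fell, where 5.35% and 40.6% of all genes did. H3K36me3 at the 3' end was called at 11 in myoblasts and 9 in myotubes, beside 51.6% and 51.1% of all genes. Of 10 with enough reads 0 rose and 1 fell, where 13.7% and 9.91% of all genes did. Trim28, the KRAB corepressor, had 25.8-fold and 24.8-fold H3K4me3 while its H3K27ac fell from 39.2-fold to 7.03-fold.

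The labelled cell states were checked with marker genes. H3K4me3 was called at 55.5% of all genes in myoblasts and 55.1% in myotubes. It was called at 4 of 8 myotube markers in myoblasts and at 8 of 8 in myotubes. Their median went from 2.30-fold to 46.7-fold and all 8 rose, beside 3.17% of all genes. H3K4me3 was called at 4 of 4 myoblast markers in both states, with none of 3 changed. Of 11 markers of neurons, blood, endothelium, liver and fat, 3 were called in myoblasts and 2 in myotubes, with medians of 1.38-fold and 0.775-fold. The myoblast peak lists deposited with the H3K27me3 and H3K27ac samples hold each other's signal, since the regions of the first held 36.4-fold H3K27ac and 0.804-fold H3K27me3 and those of the second 0.588-fold H3K27ac and 6.76-fold H3K27me3. As deposited, 114 member starts overlapped the first list and 2 the second, and the folds given above do not use the lists.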

How the data were processed

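Histone marks were profiled by ChIP-seq in C2C12 myoblasts and myotubes. The authors aligned reads of 34 bp to mm9 with Mosaik, kept unique alignments and called peaks with MACS. The deposited read files hold 1 line per read, each a count of 1, and the deposited peak lists hold the MACS score of each peak. What control MACS used and whether duplicates were removed is not given in the sources used here. Between 0.417% and 3.14% of the reads of a library shared position and strand with another read.

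Genes, transcripts and the genome came from GENCODE M1 on NCBIM37, which is mm9. Of several entries of a symbol the longest was kept (4 entries of Zfp-number genes were left out). The TSS of a gene was the annotated one with the most H3K4me3 reads in both libraries together, so H3K4me3 at the TSS is favoured by this choice. Reads were extended to 150 bp and midpoints were counted 1 kb either side of the TSS, from 1 kb after the TSS to the gene end (at least 2 kb) and in the last 2 kb of the gene. Fold is the count over the library mean on 2555806925 bases. Intervals are exact Poisson (levels), conditional binomial (ratios) or order-statistic intervals (medians), at 95%. With 0 reads, the fold of 3 reads is given. No p-value was computed. A level was called where its lower bound exceeded 1, and a ratio at 2-fold or more with at least 30 reads.

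The members and lists were chosen with earlier results of these data known. Named genes are the members with the highest and lowest myoblast fold and the largest rise and fall per mark, those with H3K27me3 of at least 3-fold at the TSS, and the first and last gene of each cluster of 5 or more. Alternatives are given in the closing section. The counting and intervals were tested on simulated data. The software comprised matplotlib 3.10.9, numba 0.67.0, scipy 1.17.1, pandas 2.3.3 and numpy 2.4.6, run under Python 3.11.15.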

Additional observations from a re-analysis of the deposited data

How the results depend on the processing

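No paired analysis was possible because each mark has 1 library per cell state. Each of 39 results that answer a comparison was recomputed under up to 15 settings, changing 1 choice at a time; 271 values kept their size and 36 moved. With 1 kb centred on the TSS, 1 kb either side of the gene end and the last 75% of the gene as windows, median H3K4me3 was 27.6-fold in myoblasts and 26.4-fold in myotubes and H3K27ac 13.7-fold and 7.30-fold. In these windows 0 members rose and 3 fell in H3K4me3, 1 rose in H3K27ac, and 3 rose and 5 fell in H3K36me3 at the 3' end, where the ratio at Zfp746 reversed to 0.761. Against the surrounding 200 kb, H3K4me3 was 11.3-fold and 11.4-fold, H3K36me3 at the 3' end 2.36-fold in myoblasts, and body H3K27me3 0.738-fold and 0.975-fold. With libraries thinned to 1857191 reads, 0 members rose in H3K4me3 and 0 in H3K27ac, 4 rose and 0 fell in H3K36me3 at the 3' end, 1 rose in body H3K27me3, body H3K27me3 was 0.770-fold in myotubes, and it was called at 4 members in myoblasts and 10 in myotubes. Among members with at least 90% unique sequence in the window, a setting chosen after seeing the data, H3K36me3 at the 3' end was 4.46-fold in myoblasts, body H3K27me3 0.636-fold in myoblasts and 0.945-fold in myotubes, called at 7 in myoblasts, and 0 rose in H3K4me3. Per unique position, body H3K27me3 in myoblasts was 0.622-fold. Scaled by windows outside peaks, 11 members rose in H3K36me3 at the 3' end, and the cluster from Zfp871 to Zfp563 reversed to 1.01. With peak scores of at least 100, the TSS windows in a peak numbered 0 for H3K27ac and 15 for H3K4me1 in myoblasts and 1 for H3K4me1 and 0 for H3K27me3 in myotubes, and 67 bodies lay in an H3K36me3 peak in myotubes, in place of 2, 37, 13, 1 and 103. With the 2 exchanged myoblast lists swapped, 114 starts lay in an H3K27ac peak and 2 in an H3K27me3 peak. Where fewer reads or members enter, calls are lost by construction, and for the other moves the cause was not tested.

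Of values for single genes, clusters and further medians, 2015 kept their size, 213 moved and 2 reversed, as given. The smallest library, myoblast H3K27ac, had 0.727 reads per kb, so that a start without the mark and a start at 2.06-fold both can show no read. Counts of H3K4me3 and H3K27ac rises and of H3K36me3 changes at the 3' end depend on window and depth and are the least firm values.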
